A study of Mus musculus with 24 samples.

Results

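Macrophages grown from wild-type (WT) mouse bone marrow were compared after 6 hours with 100 ng/ml lipopolysaccharide (LPS) and without it. The 8 libraries, 4 per group, were taken by their labels from a series of 24 that also holds macrophages with an HDAC9 knockout and macrophages labelled HDAC9 deltaCIS, in which a cis-regulatory element is deleted. Every gene that passed a filter on low counts was described, 14757 of the 56941 gene IDs in the count table. Marrow flushed from femurs and tibiae had been cultured with medium conditioned by L929 cells, a fibroblast line whose medium supplies the growth factor M-CSF. The cells of both groups were then replated, kept for a day without that medium and moved to serum-free medium, where LPS was added to 1 group only. The labels give neither strain nor age of the mice, and they do not state whether libraries of one group derive from different mice or dishes. The p-values therefore describe the spread among these libraries, which may be technical. RNA was taken from whole cultures, so a change in RNA per cell and a change in the number of cells of a kind cannot be told apart.

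LPS is a lipid of the outer membrane of Gram-negative bacteria. It is handed by CD14 to the receptor complex of TLR4 and MD-2 on macrophages. One branch of signalling runs through the adaptor MyD88 to NF-kB and the MAP kinases and switches on inflammatory genes. The other runs through the adaptor TRIF to the factor IRF3 and interferon beta, which acts back on the cell through STAT2 and IRF9 and switches on antiviral genes. Both branches also induce their own brakes, and activated macrophages are known to change their fuel use and to leave the cell cycle.

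Levels are given as CPM, counts brought to a common library total, after scaling the libraries by TMM, a method that assumes that most genes do not change. Changes are log2 ratios of LPS over untreated from 1 fit, with their standard error (SE), so that 1 unit is a doubling. A gene is said to have risen or fallen only where its adjusted p was under 0.05. A second fit of the 8 WT libraries with the replicate number as a term, called the replicate block, is quoted where it changed a call or a count by more than 1.5-fold, beside the same fit of the 8 WT libraries without that term. The 8 libraries held 15750606 to 16712666 counts each. Means are given ± SD over the 4 libraries of a group. The macrophage markers were high in all 8 libraries. Lyz2, the lysozyme of myeloid cells, read 13892, 13423, 14563 and 15575 CPM untreated and 14331, 14768, 15137 and 16439.8 CPM after LPS. Csf1r, the M-CSF receptor, read 815, 731, 734 and 927 CPM untreated and 833, 665, 585 and 799 CPM after LPS. Of the 9 macrophage markers, 6 rose and none fell at this scaling, among them Adgre1, which encodes F4/80, at 2048 ± 358 CPM untreated and 2983 ± 409 CPM with LPS. On library totals alone 2 rose and 4 fell. On library totals the macrophage markers summed to 26070.3 to 29205 CPM untreated and 17646 to 20419 CPM after LPS, against 36.4 to 86.7 and 4.97 to 11.7 for the 6 B cell markers, and at most 3.67 for each of the neutrophil, mast cell, dendritic cell and erythroid lists. The osteoclast markers summed to 14.1 to 20.8 CPM untreated and 11.2 to 13.5 CPM after LPS. Sums for the endothelial, fibroblast, natural killer and T cell lists, some of them higher, are given further on.

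The scaling decided the direction of many small changes. TMM factors were 1.30 to 1.36 in the untreated libraries and 0.743 to 0.771 after LPS, and the median log2 change over all tested genes was 0.003. With upper-quartile factors the median was -0.27, and with library totals alone, that is at a fixed number of counts, it was -0.80. Small rises at the TMM scaling therefore become falls on library totals. Where a list has a pair of counts in parentheses, they are the members that rose and those that fell under the scaling named there. List counts are to be read against all tested genes, of which 30.4% rose and 31.0% fell at the TMM scaling and 14.0% and 64.5% on library totals. The members of each list that rose are given with the number whose rise held under all 4 scalings tried, and every fall in these lists held under all 4. The other scalings put the changes lower than TMM does, so a fall called at TMM could hardly be lost under them. That the falls held is therefore no further evidence for them. The lists and the genes named by rule were chosen with earlier results of these data known.

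Library 4 of the LPS group stood apart from the other 3. Its counts differed from theirs by a chi-square per degree of freedom of 27.45 to 36.7, against 11.8 to 13.6 among the other 3. IDs without a gene symbol held 0.562% of its counts, and 2.00% to 2.66% in the others. One ID without a symbol, ENSMUSG00000119584.1, accounted for most of that gap, with 5945 CPM in library 4 and 24519.9 to 33645 CPM in the other 3. Lars2, a mitochondrial leucyl-tRNA synthetase gene, read 438, 443, 743 and 696 CPM untreated and 1598, 1506, 1213 and 424 CPM after LPS, and Mir6236 read 59.0, 56.1, 90.9 and 83.4 CPM untreated and 176, 155, 152 and 55.1 CPM after LPS. In both genes library 4 lay just under the lowest untreated library and far under the other LPS libraries. IDs without a symbol held 1.38%, 1.23%, 3.44% and 2.86% of the counts of untreated libraries 1 to 4. Both genes were also lower in untreated libraries 1 and 2 than in 3 and 4. Whether the reads counted for them come from their own transcripts was not tested. Untreated libraries 1 and 2 were likewise nearer to each other than to libraries 3 and 4, and untreated library 1 had the highest level of several LPS-induced genes, which is given where it touches a result.

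Most tested genes were called changed after LPS at the TMM scaling. These calls do not meet the assumption of TMM that most genes do not change, and the near-even split of rises and falls depends on that scaling. Of 14757 genes, 9055 passed the test (61.4%), 4484 of them higher (30.4%) and 4571 lower (31.0%). Tested against a change of 2-fold, 1890 genes were higher (12.8%) and 1666 lower (11.3%). The 4 LPS libraries did not overlap the 4 untreated ones for 9124 genes (61.8%), and 8521 of the 9055 called genes were among these. On library totals alone 11592 genes passed, 2067 higher and 9525 lower. With upper-quartile factors the split was 3307 higher and 6150 lower. The 4571 genes that fell and 2067 of those that rose did so under all 4 scalings, whereas 938 genes that rose at the TMM scaling fell on library totals. Those 2067 are the genes called higher on library totals, and the falls could hardly be lost, since every other scaling lowered the changes.

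**Figure D1:**
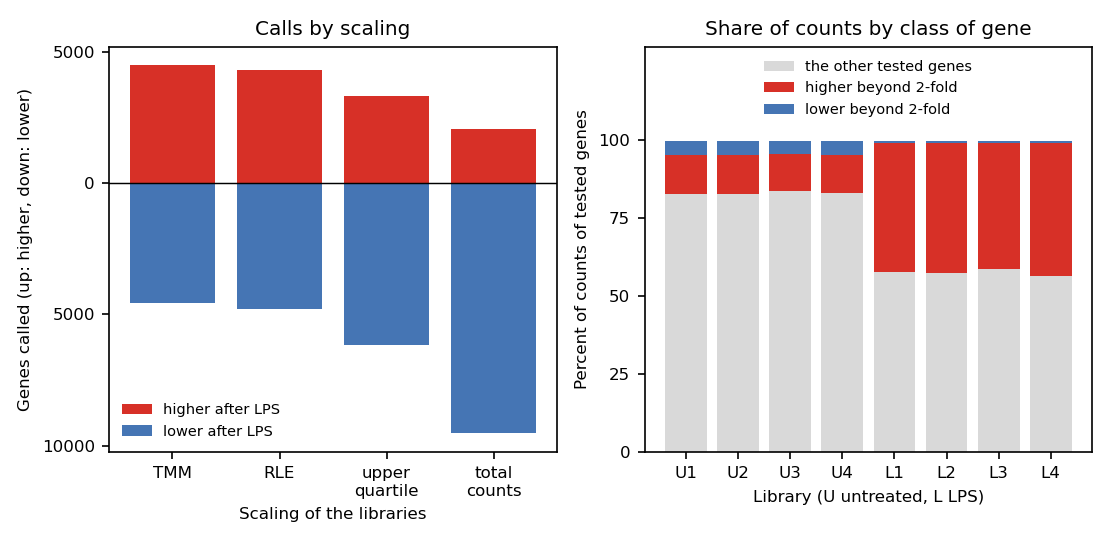
Left, genes called higher (up) and lower (down) under 4 ways of scaling the libraries. Right, the percent of counts of tested genes in each library that went to genes higher beyond 2-fold, lower beyond 2-fold and all others. The 1890 genes higher beyond 2-fold took 11.9% to 12.8% of counts in the untreated libraries and 40.6% to 42.7% after LPS.

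At the TMM scaling rises were larger than falls at the extremes. Among called genes 2416 were more than 2-fold higher and 2581 more than 2-fold lower, but 379 were more than 16-fold higher and 125 more than 16-fold lower. Beyond 64-fold the counts were 136 higher and 15 lower. A fall cannot go below 0 counts, so a gene low before LPS cannot show a large one, and this gap is partly built in. On library totals 1377 called genes were more than 2-fold higher and 5997 more than 2-fold lower. The counts beyond 16-fold and 64-fold were taken at the TMM scaling only. The 379 genes more than 16-fold higher took 0.448% to 0.572% of the counts of each untreated library and 13.1% to 13.5% of each LPS library. The shares that rose and fell differed with the level before LPS, in no single order. That level comes from the same untreated libraries as the change. A gene nearly silent in them passed the filter on low counts only through other libraries, so the excess of rises under 1 CPM is partly built in. Of genes at 100 CPM or more 53.9% rose and 17.5% fell, at 20 to 100 CPM 39.5% and 32.7%, at 5 to 20 CPM 22.2% and 46.7%, at 1 to 5 CPM 16.5% and 34.3%, and under 1 CPM 27.9% and 11.7%.

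The counts of LPS libraries were spread over fewer genes. For this count CPM was taken on library totals alone, without TMM. Untreated libraries had 12561 to 12765 genes at 1 CPM or more, and LPS libraries 11309 to 11456, with no overlap (exact permutation test, 2-sided, p = 0.0286, the smallest that 4 against 4 can give). By the TMM factors this cutoff lies under 1 TMM-scaled CPM in untreated libraries and over it in LPS libraries, and the gap at TMM-scaled CPM was not taken. With the replicate numbers taken as pairs the exact p was 0.125, the smallest that 4 pairs can give, so that a paired test of this kind cannot pass. The 100 most abundant genes of a library held 27.1% to 29.7% of its counts untreated and 30.7% to 32.9% after LPS (exact permutation p = 0.0286, and 0.125 in pairs). That difference was not seen in the 10 most abundant genes, whose share was 11.5% to 14.1% untreated and 11.0% to 13.3% after LPS (exact permutation p = 0.6).

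**Figure D2:**
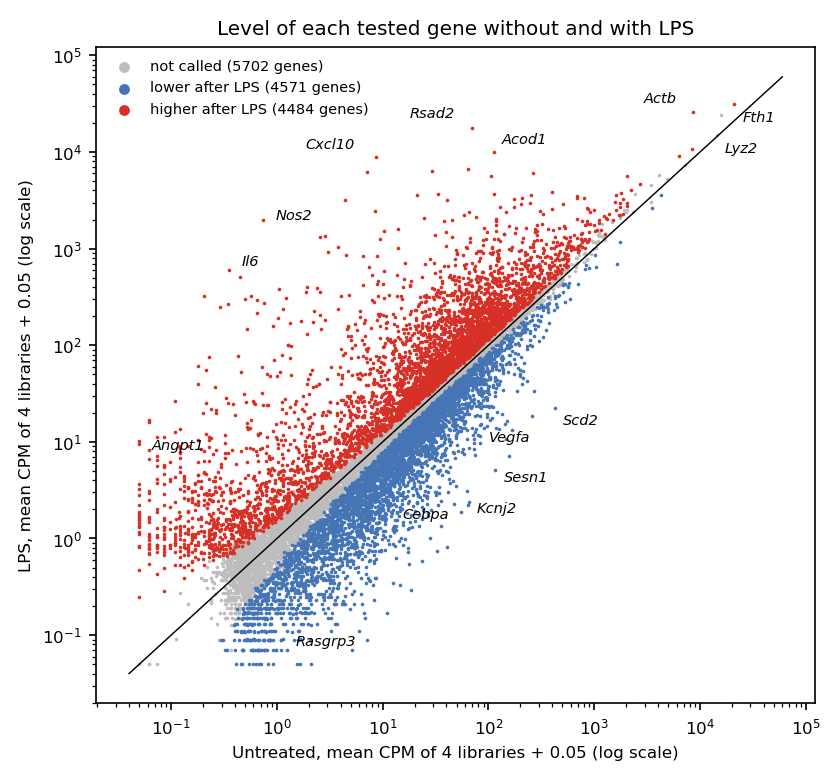
Mean CPM of each tested gene without LPS (horizontal) and with LPS (vertical), both on log axes with 0.05 CPM added, in red where higher, blue where lower and grey where not called. The line marks equal levels. Nos2, Cxcl10 and Rsad2 lie far above it and Scd2, Sesn1 and Cebpa far under it, while Lyz2 lies on it.

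The largest gains in abundance came from genes with different roles. Rsad2, which encodes the antiviral enzyme viperin, read 79.6, 65.4, 57.1 and 79.1 CPM untreated and 18418, 17746, 16905 and 17832 CPM after LPS (log2 7.98 ± 0.27, adjusted p = 4.48e-19). Actb, the cytoplasmic actin, read 7497, 9838, 8931 and 8405 CPM untreated and 25344, 27008, 27567 and 24886 CPM after LPS (log2 1.60 ± 0.13, adjusted p = 3.19e-11). Acod1, the enzyme that makes itaconate, read 239, 58.3, 95.9 and 53.4 CPM untreated and 10773, 9639, 9064 and 10137 CPM after LPS (log2 6.47 ± 0.55, adjusted p = 9.23e-11). Untreated library 1 was the highest of its group for Acod1, and no library of one group reached the range of the other for any of these 3 genes. Fth1, the ferritin heavy chain, had a log2 change of 0.60 ± 0.16 at the TMM scaling (adjusted p = 0.00208) and of -0.21 on library totals. Ftl1, the ferritin light chain, fell under all 4 scalings, from 3492 ± 189 to 2635 ± 228 CPM (log2 -0.41 ± 0.12). Other large losses were those of Neat1, a nuclear noncoding RNA, from 1631 ± 128 to 696 ± 80.4 CPM, of Sirpa, the receptor for CD47, from 1734 ± 151 to 1181 ± 47.4 CPM, and of Lrp1, a scavenger and endocytosis receptor, from 1029 ± 69.9 to 638 ± 113 CPM.

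Some genes went from near silence to a clear signal. In 89 genes all 4 untreated libraries were under 1 CPM and all 4 LPS libraries at 5 CPM or more, and in 33 genes the reverse held. The genes named next were picked from these by their level, after it was seen. Lhx2, a LIM homeobox factor, read 0.186, 0.233, 0.191 and 0.0969 CPM untreated and 78.1, 76.9, 63.0 and 85.3 CPM after LPS (log2 8.68 ± 0.30, adjusted p = 6.11e-19). Ch25h, which makes 25-hydroxycholesterol, read 0.279, 0.419, 0.572 and 0.630 CPM untreated and 146, 163, 145 and 138 CPM after LPS (log2 8.27 ± 0.24, adjusted p = 4.21e-20). Klrk1, the NKG2D receptor of natural killer cells, read 0.139, 0, 0.0476 and 0.0485 CPM untreated and 23.2, 34.6, 25.9 and 21.5 CPM after LPS (log2 8.63 ± 0.39, adjusted p = 2.32e-16), and it was the only gene of the natural killer cell list with enough counts to be tested. Hdc, which makes histamine, went from 0.165 ± 0.0608 to 55.0 ± 3.84 CPM. Ptx3 was without a single count in the untreated group, which with a floor of 3 counts for that group makes it at least 284-fold higher under LPS. By the same reckoning Angpt1 was at least 267-fold higher. Among genes lost to under 1 CPM were Zfp395, a zinc finger gene, from 23.6 ± 2.99 to 0.540 ± 0.131 CPM, Plekhg3, from 32.4 ± 2.47 to 0.697 ± 0.276 CPM, and Gpr183, the receptor for oxysterols that derive from the product of Ch25h, from 13.3 ± 1.39 to 0.576 ± 0.131 CPM.

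**Figure D3:**
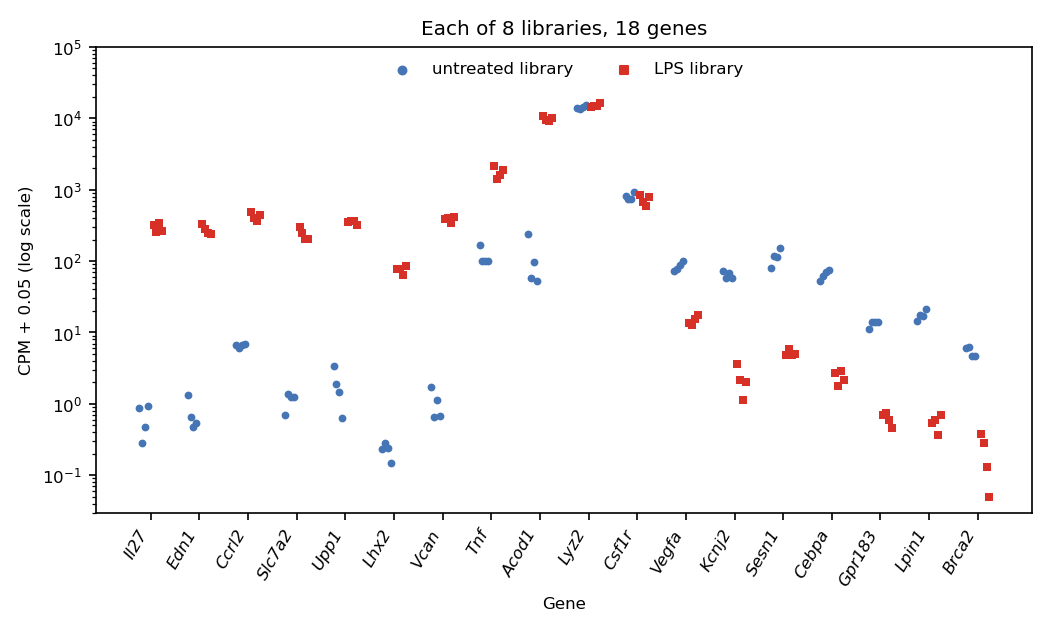
CPM of 18 genes in each of the 8 libraries, on a log axis with 0.05 CPM added, untreated as circles and LPS as squares, each in the order of replicate number. Groups overlap only for Lyz2 and Csf1r. Untreated library 1 is the highest of its group for Tnf and Acod1.

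Most cytokine genes rose. Of 28 cytokine genes tested, 24 rose and 2 fell, 23 and 2 of them under all 4 scalings (23 and 4 on library totals), with a median log2 change of 4.36. Il27, which encodes the p28 subunit of interleukin 27, read 0.836, 0.233, 0.429 and 0.872 CPM untreated and 317, 254, 342 and 268 CPM after LPS (log2 8.95 ± 0.25, adjusted p = 2.81e-20). Tnf read 169, 101, 101 and 101 CPM untreated and 2166, 1419, 1616 and 1886 CPM after LPS (log2 3.91 ± 0.22, adjusted p = 1.72e-14), and the anti-inflammatory cytokine Il10 read 6.46, 5.96, 7.48 and 7.75 CPM untreated and 87.1, 92.0, 97.2 and 91.5 CPM after LPS (log2 3.73 ± 0.22, adjusted p = 4.11e-14). All 3 separated the groups without overlap. Untreated library 1 had the highest Tnf of its group. Ifnb1, the interferon of the TRIF branch, was low in both groups, at 0.106 ± 0.103 CPM untreated and 2.58 ± 1.16 CPM with LPS, and rose (log2 4.51 ± 0.52). Il16 was among the 2 that fell, from 19.7 ± 3.65 to 3.74 ± 0.463 CPM (log2 -2.40 ± 0.22). Tgfb1 was abundant at 522 ± 15.9 CPM untreated and 592 ± 37.5 CPM with LPS and did not pass the test (adjusted p = 0.0768, 0.0833 in the WT libraries alone and 0.039 with the replicate block).

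Of 23 chemokine genes, 18 rose and none fell, 17 of them under all 4 scalings. On library totals alone 4 members fell. The ligands of CXCR3, which draw T cells, were among the strongest. Cxcl10 read 13.8, 6.66, 8.00 and 5.86 CPM untreated and 8648, 8950.2, 8652 and 9053 CPM after LPS (log2 10.00 ± 0.35, adjusted p = 1.14e-18). Cxcl9 read 0.0464, 0.419, 0.238 and 0.242 CPM untreated and 227, 304, 238 and 236 CPM after LPS (log2 10.01 ± 0.41, adjusted p = 2.45e-17), and Cxcl11 went from 0.0582 ± 0.0698 to 12.6 ± 2.26 CPM. Ccl3, an attractant of monocytes and T cells, went from 265 ± 36.7 to 6001 ± 1492 CPM. Ccl6 had 472 ± 89.9 CPM untreated and 526 ± 114 CPM with LPS and did not pass (adjusted p = 0.362).

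Growth and vascular factors split evenly at the TMM scaling, with 9 that rose, 8 of them under all 4 scalings, and 9 that fell of 26 (34.6% each, against 30.4% and 31.0% of all genes). On library totals 8 rose and 14 fell. Edn1, the vasoconstrictor endothelin 1, read 1.30, 0.605, 0.429 and 0.485 CPM untreated and 336, 282, 246 and 242 CPM after LPS (log2 8.59 ± 0.28, adjusted p = 3.03e-19). Vegfa, the main growth factor of blood vessels, read 72.1, 76.4, 87.3 and 99.8 CPM untreated and 13.4, 12.7, 15.2 and 17.7 CPM after LPS (log2 -2.51 ± 0.20, adjusted p = 3.75e-11). The 2 genes moved in opposite directions with no overlap between groups in either. Inhba, the activin subunit, rose from 0.356 ± 0.147 to 19.1 ± 7.35 CPM, and Hbegf, a ligand of the EGF receptor, from 3.64 ± 1.27 to 19.9 ± 1.17 CPM. Pdgfb fell (log2 -1.69 ± 0.32), with LPS libraries at 9.89 CPM on average but library 1 at 18.6 CPM and the other 3 at 5.36 to 8.70 CPM.

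Of 22 antimicrobial, clotting and acute phase genes, 17 rose, 15 under all 4 scalings, and 1 fell (15 and 3 on library totals). The protease inhibitors Serpina3f and Serpina3g, members of one multigene cluster whose reads may be hard to separate, rose, the first from 0.294 ± 0.218 to 267 ± 34.5 CPM and the other from 0.448 ± 0.169 to 298 ± 67.3 CPM. Serpinb2, an inhibitor of plasminogen activators, rose from 0.409 ± 0.351 to 53.02 ± 6.16 CPM. Plau, the plasminogen activator urokinase itself, was the member that fell, from 212 ± 75.03 to 46.1 ± 5.95 CPM (log2 -2.20 ± 0.26). Saa3, an acute phase apolipoprotein, rose from 106 ± 34.5 to 5606 ± 827 CPM.

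To show the sequence next to the responses, RefSeq promoter windows (GRCm38.p6, 250 bases before to 50 after a transcription start) were searched on both strands for 4 motifs. GGNNTTTCC stood for the binding site of NF-kB, GAAANNGAA for the interferon response element (ISRE), TGANTCA for AP-1, and TTTCCCGC or TTTGGCGC for E2F. Matches of different motifs can share bases, and a match is not a binding site. Of 32851 windows of all genes, 5.82% held the NF-kB motif, 8.56% the ISRE motif, 7.81% the AP-1 motif and 1.56% an E2F motif. Of the 12129 windows found for 9535 tested genes the shares were 6.41%, 7.61%, 5.26% and 2.94%, in the same order. Of the 296 windows found for 248 of the 379 genes more than 16-fold higher, 11.8%, 26.7%, 15.2% and 2.03% held them. Of the 97 windows for 77 of the 125 genes more than 16-fold lower, the shares were 5.15%, 6.19%, 3.09% and 9.28%. In 47 windows of the antiviral list the NF-kB, ISRE, AP-1 and E2F motifs were in 12.8%, 48.9%, 19.1% and 2.13%. In 17 windows of the chemokine list they were in 35.3%, 23.5%, 23.5% and 0%. An E2F motif was in 34.3% of 35 windows of the S phase list and in 0 of 31 windows of the mitosis list.

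The 250 bases before the start are printed for 5 genes that rose strongly and 2 that fell, written 5′ to 3′ on the strand of the gene, with matches in capitals. They are shown because they hold the motifs just counted, in genes described here. Cxcl10 (chr5:92348890-92349139, minus strand) has an ISRE, an NF-kB and an AP-1 match that begin 213, 158 and 74 bases before the start. Cxcl9 (chr5:92328080-92328329, minus strand) has an ISRE match and a pair of NF-kB matches. Rsad2 (chr12:26456453-26456702, minus strand) has an ISRE, an AP-1 and an NF-kB match within 119 bases of the start, and Gbp5 (chr3:142496684-142496933, plus strand) an ISRE and an NF-kB match. Il6 (chr5:30012864-30013113, plus strand) has an AP-1 match and, 43 bases before the start, an NF-kB match. Cdc6 (chr11:98907901-98908150, plus strand) and Cdca7 (chr2:72475969-72476218, plus strand), which both fell, have 1 E2F match each. Il6 went from 0.306 ± 0.246 to 601 ± 175 CPM. The window of Il12b, which went from 0.153 ± 0.0578 to 321 ± 88.6 CPM, held none of the 4 motifs in these 250 bases.
Cxcl10: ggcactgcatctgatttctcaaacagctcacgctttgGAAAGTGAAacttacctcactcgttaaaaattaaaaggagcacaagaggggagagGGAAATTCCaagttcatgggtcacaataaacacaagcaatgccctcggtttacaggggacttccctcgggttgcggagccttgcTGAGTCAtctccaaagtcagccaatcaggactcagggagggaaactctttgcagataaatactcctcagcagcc
Cxcl9: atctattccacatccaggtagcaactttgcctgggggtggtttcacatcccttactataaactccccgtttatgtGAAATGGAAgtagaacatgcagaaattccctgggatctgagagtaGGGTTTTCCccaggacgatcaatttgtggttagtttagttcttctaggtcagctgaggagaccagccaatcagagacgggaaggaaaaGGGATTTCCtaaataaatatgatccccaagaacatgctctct
Rsad2: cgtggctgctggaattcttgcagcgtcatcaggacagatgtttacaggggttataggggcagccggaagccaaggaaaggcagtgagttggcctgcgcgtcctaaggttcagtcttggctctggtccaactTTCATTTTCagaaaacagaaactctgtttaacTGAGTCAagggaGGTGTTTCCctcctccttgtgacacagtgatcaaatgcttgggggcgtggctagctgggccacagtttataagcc
Gbp5: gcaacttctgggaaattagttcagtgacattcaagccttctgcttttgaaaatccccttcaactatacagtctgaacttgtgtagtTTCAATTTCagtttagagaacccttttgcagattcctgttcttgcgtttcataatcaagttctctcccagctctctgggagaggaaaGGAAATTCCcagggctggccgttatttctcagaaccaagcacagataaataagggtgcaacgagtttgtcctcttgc
Il6: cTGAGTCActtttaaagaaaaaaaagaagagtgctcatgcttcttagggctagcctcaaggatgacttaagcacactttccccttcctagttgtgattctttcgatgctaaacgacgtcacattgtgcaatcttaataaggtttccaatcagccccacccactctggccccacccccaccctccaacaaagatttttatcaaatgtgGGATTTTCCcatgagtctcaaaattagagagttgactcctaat
Cdc6: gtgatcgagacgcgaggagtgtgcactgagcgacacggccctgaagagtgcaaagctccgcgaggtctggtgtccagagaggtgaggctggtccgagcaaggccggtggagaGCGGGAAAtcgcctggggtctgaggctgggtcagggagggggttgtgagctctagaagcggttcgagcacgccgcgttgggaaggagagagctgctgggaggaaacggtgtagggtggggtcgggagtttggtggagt
Cdca7: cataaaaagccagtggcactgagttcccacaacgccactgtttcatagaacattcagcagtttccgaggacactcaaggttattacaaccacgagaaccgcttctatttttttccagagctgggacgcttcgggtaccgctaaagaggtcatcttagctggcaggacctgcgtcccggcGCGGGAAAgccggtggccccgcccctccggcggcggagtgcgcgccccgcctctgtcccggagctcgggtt

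Receptors that sense microbes rose in the main. Of 27 pattern recognition receptor genes, 23 rose and 3 fell, 18 and 3 of them under all 4 scalings (18 and 4 on library totals). The receptor for LPS itself rose little. Tlr4 read 38.2, 41.0, 35.7 and 42.7 CPM untreated and 53.9, 53.7, 50.02 and 61.4 CPM after LPS, a log2 change of 0.47 ± 0.17 (adjusted p = 0.0195) that was -0.33 on library totals. Its adjusted p was 0.0571 without untreated library 3 and 0.0623 without LPS library 4. Its co-receptor Cd14 went from 445 ± 52.5 to 1171 ± 89.5 CPM (log2 1.40 ± 0.12). Among sensors of nucleic acids, Ifih1, the RNA sensor MDA5, went from 37.5 ± 3.98 to 1925 ± 120.3 CPM, Tlr3, the endosomal receptor for double-stranded RNA, from 8.95 ± 0.650 to 211 ± 20.0 CPM, and Zbp1, a sensor of Z-form nucleic acid, from 39.8 ± 1.78 to 1061 ± 54.1 CPM. Clec4e, the receptor Mincle, read 137, 46.1, 70.0 and 49.1 CPM untreated and 2608, 1818, 1952 and 2038 CPM after LPS (log2 4.80 ± 0.40, adjusted p = 6.73e-11), with untreated library 1 the highest of its group. Tlr13, which senses bacterial ribosomal RNA, fell from 203 ± 8.93 to 75.5 ± 17.2 CPM (log2 -1.43 ± 0.17).

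Cytokine and growth factor receptors rose in 21 and fell in 5 of 32 genes, 18 and 5 under all 4 scalings (18 and 10 on library totals), and in the WT libraries alone 6 fell, 8 with the replicate block. Il15ra, which presents interleukin 15 to lymphocytes, read 3.30, 2.61, 2.48 and 2.71 CPM untreated and 171, 196, 155 and 199.8 CPM after LPS (log2 6.02 ± 0.19, adjusted p = 9.71e-20). Il2ra, the alpha chain of the interleukin 2 receptor, rose from 1.29 ± 0.212 to 23.1 ± 4.19 CPM, Il13ra1 from 10.3 ± 1.85 to 99.1 ± 6.69 CPM and Flt1, a receptor of VEGF, from 1.15 ± 0.333 to 27.7 ± 2.62 CPM. Il6st, the shared signalling chain gp130 of the interleukin 6 family, fell from 85.2 ± 9.07 to 25.4 ± 3.09 CPM, while its ligand Il6 rose to 601 CPM. Tnfrsf21, the death receptor DR6, fell from 35.7 ± 1.94 to 10.8 ± 2.08 CPM. Csf1r did not pass the test at the TMM scaling (adjusted p = 0.529, 0.161 in the WT libraries alone and 0.0135 with the replicate block, 95% interval of the log2 change [-0.57, 0.26]). It was called lower with upper-quartile factors, on library totals and without a filter (log2 -0.43, -0.96 and -0.32, adjusted p = 0.0491, 5.40e-05 and 0.0289).

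Receptors for chemoattractants and for small lipids and metabolites went both ways. Among 17 chemoattractant receptors 9 rose and 4 fell, but only 4 of the rises held under all 4 scalings (4 and 7 on library totals). Ccrl2, a receptor that binds chemerin without signalling, read 6.59, 5.92, 6.72 and 6.74 CPM untreated and 491, 398, 365 and 444 CPM after LPS (log2 6.03 ± 0.18, adjusted p = 6.44e-20). The formyl peptide receptors Fpr1 and Fpr2, which detect bacterial peptides, rose, the first from 122 ± 24.3 to 563 ± 45.5 CPM and the other from 25.7 ± 2.98 to 199 ± 5.48 CPM. Cxcr4, the receptor that keeps leukocytes in the marrow, fell from 11.7 ± 2.57 to 1.01 ± 0.139 CPM. Of 33 receptors for lipids, nucleotides and metabolites, 17 rose, 11 under all 4 scalings, and 10 fell (11 and 19 on library totals). The lysophosphatidic acid receptors moved in opposite directions. Lpar1 read 0.279, 0.373, 0.238 and 0.242 CPM untreated and 30.0, 27.7, 29.3 and 26.6 CPM after LPS (log2 6.61 ± 0.22, adjusted p = 5.77e-19), and Lpar5 read 8.31, 6.80, 7.38 and 10.2 CPM untreated and 0.163, 0.0777, 0.235 and 0.243 CPM after LPS (log2 -5.45 ± 0.49, adjusted p = 2.57e-10). Adora2a, the adenosine receptor that raises cyclic AMP, rose from 1.27 ± 0.964 to 74.2 ± 9.78 CPM, and Hcar2, the receptor for niacin and ketone bodies, from 4.98 ± 2.00 to 73.4 ± 13.3 CPM. Cnr2, the cannabinoid receptor of immune cells, fell from 10.9 ± 0.526 to 0.121 ± 0.0831 CPM.

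Adhesion and uptake receptors also divided. Of 30 integrin and adhesion genes 17 rose, 12 under all 4 scalings, and 7 fell (12 and 13 on library totals). Icam1, the ligand of beta 2 integrins, read 119.6, 76.5, 92.0 and 92.8 CPM untreated and 1288, 1243, 1212 and 1309 CPM after LPS (log2 3.73 ± 0.15, adjusted p = 1.12e-17). Itgb8, an integrin that activates TGF-beta, rose from 0.176 ± 0.0951 to 10.4 ± 2.14 CPM. Itga6 fell from 94.5 ± 12.4 to 33.6 ± 3.46 CPM and Itgb3 from 5.31 ± 1.80 to 0.913 ± 0.181 CPM, while the abundant beta 2 chain Itgb2 was at 688 ± 15.2 CPM untreated and 714 ± 21.1 CPM with LPS and did not pass (adjusted p = 0.669). Of 29 phagocytic and scavenger receptors, 15 rose, 8 under all 4 scalings, and 7 fell (8 and 13 on library totals). Axl, a receptor for apoptotic cells, rose from 5.68 ± 1.51 to 143 ± 22.7 CPM. Among receptors for antibody, the inhibitory Fcgr2b and the activating Fcgr4 both rose, the first from 107 ± 16.3 to 1033 ± 114 CPM and the other from 69.5 ± 8.70 to 713 ± 99.5 CPM. Cd300lb, an activating receptor for lipids, fell from 151 ± 11.9 to 16.4 ± 3.54 CPM. Of 23 co-stimulatory and checkpoint genes 20 rose, 14 under all 4 scalings, and 2 fell (14 and 3 on library totals). Cd40, which receives help from T cells, rose from 14.0 ± 1.53 to 1596 ± 57.3 CPM, the checkpoint ligand Cd274, known as PD-L1, from 64.9 ± 17.9 to 2369 ± 311 CPM, and Cd69 from 8.45 ± 2.49 to 2429 ± 247 CPM. Vsir, the checkpoint protein VISTA, fell from 244 ± 44.0 to 112 ± 16.2 CPM.

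**Figure D4:**
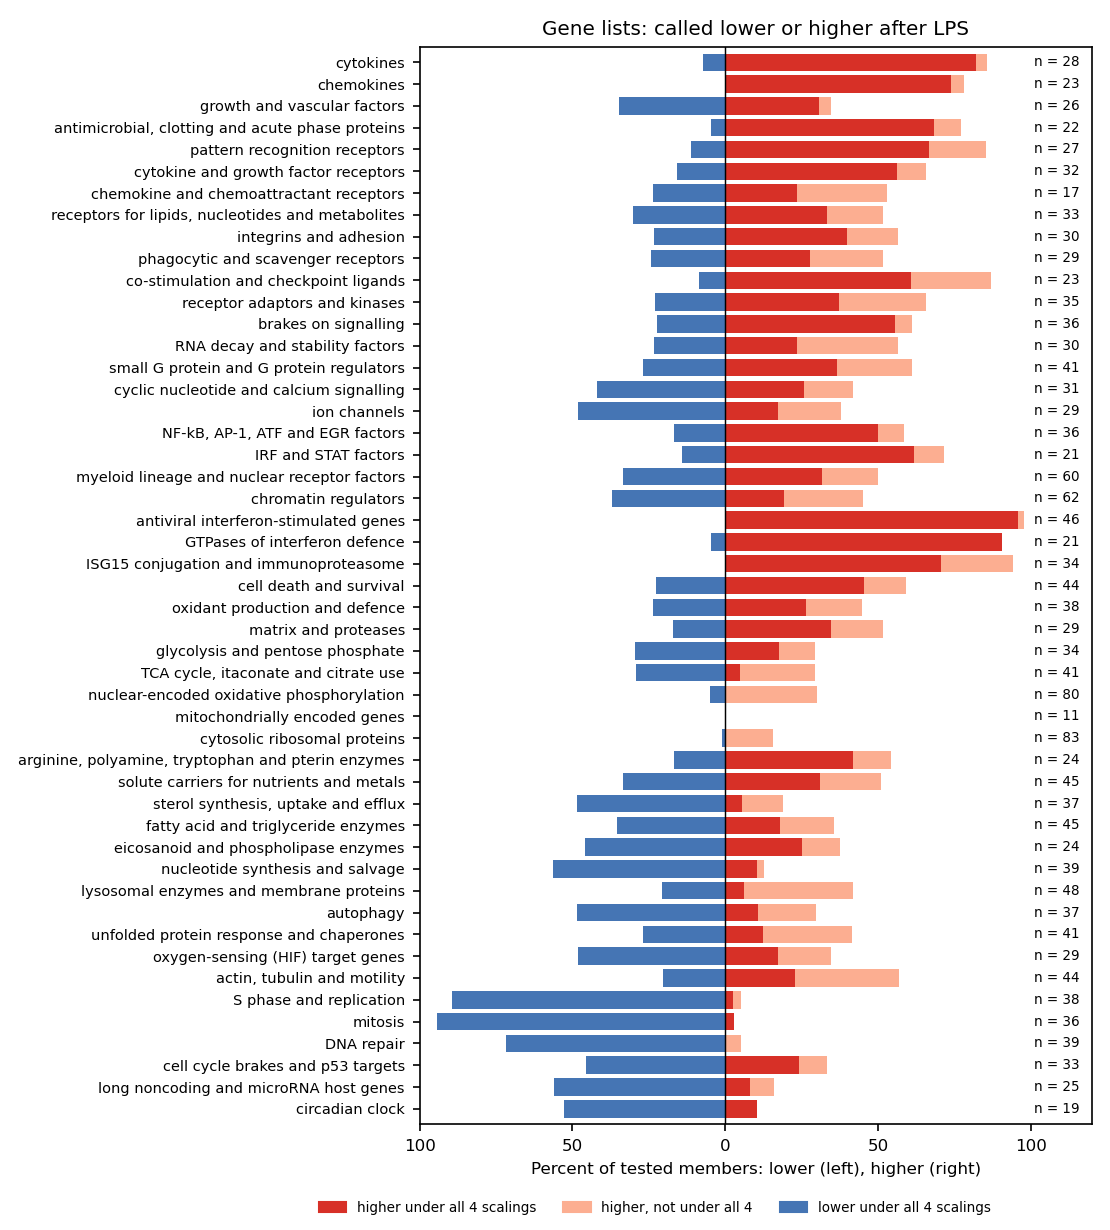
Percent of tested members of each gene list that were called higher (right) or lower (left) after LPS, with the number tested at the right edge. Dark red marks rises that held under all 4 scalings and light red those that did not. All falls held, the other scalings moving the changes downward. Rises fill most of the antiviral list and falls most of the S phase and mitosis lists, and the light red share is the whole of the rises in oxidative phosphorylation and ribosomal proteins.

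Between receptor and nucleus, members of both the transmitting and the restraining lists rose and fell. Of 35 adaptors and kinases 23 rose and 8 fell, with 13 and 8 under all 4 scalings, and on library totals 13 rose and 14 fell. Myd88 read 76.6, 74.1, 76.1 and 75.5 CPM untreated and 474, 488, 483 and 481 CPM after LPS (log2 2.67 ± 0.10, adjusted p = 1.43e-18). Traf1, an adaptor of TNF receptors, rose from 15.8 ± 7.18 to 488 ± 47.2 CPM, and Peli1, a ubiquitin ligase of the pathway, from 24.8 ± 2.62 to 322 ± 20.3 CPM. Mapk14, the kinase p38 alpha, fell from 110.5 ± 10.2 to 36.7 ± 1.23 CPM (log2 -1.59 ± 0.10), with LPS libraries within 35.7 to 38.4 CPM. Of 36 genes that restrain signalling 22 rose and 8 fell, 20 and 8 under all 4 scalings (20 and 13 on library totals). Socs1, an inhibitor of Janus kinases, read 1.72, 1.63, 1.00 and 2.28 CPM untreated and 159.6, 200.4, 172 and 184 CPM after LPS (log2 6.75 ± 0.20, adjusted p = 4.55e-20). Socs3 rose from 13.8 ± 6.98 to 1008 ± 35.2 CPM, Dusp2, a phosphatase of MAP kinases, from 2.57 ± 0.749 to 149 ± 22.3 CPM, and Usp18, which removes ISG15 and blocks the interferon receptor, from 31.1 ± 3.26 to 1387 ± 54.4 CPM. Inpp5d, the lipid phosphatase SHIP1, fell from 213 ± 20.9 to 54.4 ± 4.87 CPM, and Dusp3 from 154 ± 5.28 to 53.1 ± 1.63 CPM.

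Factors that control RNA stability included close relatives that moved in opposite directions. Zfp36, which encodes tristetraprolin and marks cytokine transcripts for decay, read 156, 148, 119 and 134 CPM untreated and 1479.9, 1335, 1364 and 1438 CPM after LPS (log2 3.33 ± 0.10, adjusted p = 1.15e-19). Its relative Zfp36l1 read 62.1, 90.1, 76.8 and 104 CPM untreated and 11.4, 7.22, 9.72 and 10.4 CPM after LPS (log2 -3.10 ± 0.33, adjusted p = 6.07e-09). Another relative, Zfp36l2, read 122, 118, 108 and 133 CPM untreated and 24.0, 17.1, 16.6 and 22.7 CPM after LPS (log2 -2.58 ± 0.23, adjusted p = 2.14e-10). None of the 3 overlapped between groups, and the directions held under all 4 scalings. Arid5a, which protects the transcript of Il6 from decay, rose from 8.22 ± 1.91 to 283 ± 29.1 CPM. Of the 30 genes of this list 17 rose and 7 fell, with 7 and 7 under all 4 scalings (7 and 15 on library totals).

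Signalling by small G proteins, cyclic nucleotides and ions lost as well as gained members. Among 41 regulators of small and heterotrimeric G proteins 25 rose, 15 under all 4 scalings, and 11 fell (15 and 20 on library totals). Rasgrp3, an exchange factor that limits TLR signals, read 5.48, 7.45, 6.05 and 9.01 CPM untreated and 0, 0.155, 0 and 0 CPM after LPS (log2 -7.21 ± 0.75, adjusted p = 4.05e-09). Gnb4, a G protein beta subunit, rose from 6.07 ± 1.17 to 194 ± 10.7 CPM and Rapgef2, an exchange factor for Rap1, from 41.7 ± 10.5 to 656 ± 84.5 CPM. Pde4b, which breaks down cyclic AMP, rose from 13.6 ± 3.68 to 159 ± 16.3 CPM, and Adcy9, which makes it, fell from 7.42 ± 1.73 to 0.714 ± 0.289 CPM. Ion channels fell in 14 and rose in 11 of 29 genes, and on library totals alone fell in 22 and rose in 5. Kcnj2, the inward rectifier potassium channel Kir2.1, read 73.1, 57.9, 68.8 and 58.8 CPM untreated and 3.597, 2.10, 1.10 and 1.94 CPM after LPS (log2 -4.89 ± 0.27, adjusted p = 1.09e-14). Kcnk13, the potassium channel THIK-1, fell from 33.3 ± 0.523 to 2.17 ± 0.125 CPM. Kcna3, the voltage-gated channel Kv1.3, rose from 0.248 ± 0.0959 to 5.85 ± 1.20 CPM.

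Transcription factors went both ways. Of 36 NF-kB, AP-1, ATF and EGR factors 21 rose, 18 under all 4 scalings, and 6 fell, and on library totals 18 rose and 16 fell. Batf2 read 5.57, 4.98, 5.19 and 6.11 CPM untreated and 171, 159, 168 and 173 CPM after LPS (log2 4.94 ± 0.11, adjusted p = 2.21e-21). Nfkb2, the precursor of p52, rose from 80.6 ± 11.4 to 745 ± 66.9 CPM, and Mxd1, an antagonist of Myc, from 14.8 ± 2.60 to 322 ± 38.8 CPM. Egr2 fell from 18.3 ± 4.14 to 5.49 ± 0.580 CPM, and Atf5 from 136 ± 17.3 to 56.9 ± 8.34 CPM. Of 21 IRF and STAT genes 15 rose, 13 under all 4 scalings, and 3 fell (13 and 5 on library totals). Irf7, which amplifies interferon production, read 59.5, 56.6, 58.7 and 60.8 CPM untreated and 2108, 2169.9, 2278 and 2358 CPM after LPS (log2 5.24 ± 0.19, adjusted p = 2.50e-18). Stat2 rose from 109 ± 7.44 to 1027 ± 66.0 CPM, Irf1 from 34.6 ± 3.85 to 507 ± 30.7 CPM and the kinase Jak2 from 34.7 ± 1.70 to 589.7 ± 46.3 CPM. Irf2bp2, a repressor partner of IRF2, fell from 91.3 ± 10.6 to 13.8 ± 2.28 CPM.

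Of 60 lineage factors and nuclear receptors 30 rose and 20 fell, 19 and 20 under all 4 scalings (19 and 30 on library totals). Cebpa, a factor of myeloid differentiation, read 51.9, 62.1, 70.7 and 75.8 CPM untreated and 2.70, 1.71, 2.82 and 2.10 CPM after LPS (log2 -4.80 ± 0.24, adjusted p = 1.95e-15). Lyl1, a blood stem cell factor, fell from 65.6 ± 5.93 to 8.69 ± 0.879 CPM. Ikzf1, the factor Ikaros, rose from 69.9 ± 9.53 to 323 ± 35.6 CPM, and Tcf4, a factor of plasmacytoid dendritic cells, from 58.3 ± 10.8 to 337 ± 13.6 CPM. Mef2a, at 109 ± 12.3 CPM untreated and 96.4 ± 10.1 CPM with LPS, did not pass (adjusted p = 0.276, 0.0633 in the WT libraries alone and 0.0214 with the replicate block). It was called lower with upper-quartile factors, on library totals and without a filter (log2 -0.45, -0.99 and -0.34, adjusted p = 0.00294, 1.54e-07 and 0.0199). Chromatin regulators were divided, with 28 of 62 that rose and 23 that fell, of which 12 and 23 held under all 4 scalings (12 and 42 on library totals). Among histone deacetylases, Hdac5, a class IIa enzyme, read 65.5, 74.7, 69.9 and 87.5 CPM untreated and 7.77, 7.92, 6.35 and 7.28 CPM after LPS (log2 -3.34 ± 0.16, adjusted p = 5.02e-16). Hdac9, also of class IIa and the gene targeted in the other genotypes of the series, read 9.15, 12.4, 11.4 and 12.0 CPM untreated and 11.4, 16.5, 10.4 and 11.0 CPM after LPS, with overlapping groups (adjusted p = 0.591). Setdb2, a histone methyltransferase, rose from 7.07 ± 1.40 to 86.5 ± 8.50 CPM, and Tet2, which oxidises 5-methylcytosine, from 33.1 ± 8.30 to 167 ± 23.9 CPM. Uhrf1, which maintains DNA methylation at replication, fell from 28.4 ± 10.3 to 1.93 ± 0.406 CPM.

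Interferon-stimulated genes rose almost throughout. Of 46 antiviral genes 45 rose and none fell, 44 under all 4 scalings, and the list went from 0.489% to 0.537% of counts per untreated library to 5.46% to 5.82% after LPS. Oasl1, which restrains translation of Irf7, read 10.2, 10.4, 8.00 and 9.26 CPM untreated and 1218, 1297, 1209 and 1253 CPM after LPS (log2 7.04 ± 0.31, adjusted p = 9.99e-17). Mx1, a dynamin-like antiviral GTPase, rose from 33.3 ± 7.55 to 3702 ± 219 CPM, and Cmpk2, the neighbour of Rsad2 that makes its substrate, from 29.1 ± 1.72 to 6386 ± 208 CPM. Ifitm6 was the member that did not pass, at 5.12 ± 1.54 CPM untreated and 6.82 ± 1.21 CPM with LPS (adjusted p = 0.149, 0.128 in the WT libraries alone and 0.0181 with the replicate block). Of 21 GTPases of interferon defence 19 rose, 19 under all 4 scalings, and 1 fell (19 and 2 on library totals). Gbp5, which acts on the membranes of intracellular pathogens, read 5.99, 2.98, 3.86 and 4.65 CPM untreated and 3157, 2952, 3062 and 3547 CPM after LPS (log2 9.50 ± 0.31, adjusted p = 3.14e-19). Gbp4 rose from 0.521 ± 0.221 to 325 ± 35.5 CPM and Iigp1 from 3.69 ± 1.499 to 1050.3 ± 184 CPM. These families hold close paralogs, and how the authors' counting treated reads shared between them is not given in the sources used here. Atl2, an atlastin that shapes the endoplasmic reticulum and is no interferon gene, fell from 22.9 ± 0.930 to 17.4 ± 2.09 CPM. Of 34 genes of ISG15 conjugation and antigen processing 32 rose and none fell, 24 under all 4 scalings, including Isg15 itself, from 45.1 ± 1.87 to 1969.5 ± 208 CPM, and Nlrc5, the activator of MHC class I genes, from 30.9 ± 4.06 to 555 ± 89.0 CPM. On library totals alone 6 members fell.

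Of 44 genes of cell death 26 rose, 20 under all 4 scalings, and 10 fell (20 and 19 on library totals). Casp4, which detects LPS in the cytosol and is named caspase 11 in mice, read 36.9, 24.4, 26.8 and 27.8 CPM untreated and 384, 396, 385 and 404 CPM after LPS (log2 3.76 ± 0.16, adjusted p = 7.30e-17). The survival genes Bcl2a1d and Bcl2a1a, near-identical copies whose reads may be hard to separate, rose, the first from 7.67 ± 1.05 to 150.3 ± 7.52 CPM and the other from 3.73 ± 0.696 to 50.2 ± 5.06 CPM. The pro-death gene Bcl2l11, known as BIM, fell from 47.6 ± 6.83 to 21.2 ± 3.16 CPM. Nlrp1b, an inflammasome sensor, fell from 19.2 ± 5.14 to 2.75 ± 0.627 CPM, and Mefv, the inflammasome sensor pyrin, rose from 5.76 ± 3.41 to 75.7 ± 4.86 CPM. Of 38 genes of oxidant production and defence 17 rose, 10 under all 4 scalings, and 9 fell (11 and 13 with upper-quartile factors, 10 and 24 on library totals). Nos2, the inducible nitric oxide synthase, read 1.67, 0.0931, 0.953 and 0.0485 CPM untreated and 2204, 2024, 1719.7 and 2050.2 CPM after LPS (log2 11.47 ± 0.58, adjusted p = 2.19e-15). Untreated libraries 1 and 3 were above libraries 2 and 4 in Nos2, by few counts. Sod2, the mitochondrial superoxide dismutase, rose from 285 ± 85.6 to 1777 ± 124 CPM and Prdx5, a peroxiredoxin, from 209 ± 14.2 to 1180.4 ± 111 CPM. Gclc, which limits the synthesis of glutathione, fell from 33.9 ± 2.74 to 12.7 ± 2.98 CPM. Hmox1, the haem oxygenase, ranged widely within both groups, at 1179.7 ± 288 CPM untreated and 1353 ± 315 CPM with LPS, and did not pass (adjusted p = 0.607, 0.423 in the WT libraries alone and 0.0315 with the replicate block).

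Of 29 matrix genes 15 rose, 10 under all 4 scalings, and 5 fell (10 and 12 on library totals). Vcan, the proteoglycan versican, read 1.67, 0.605, 1.10 and 0.630 CPM untreated and 383, 401, 347 and 414 CPM after LPS (log2 8.58 ± 0.25, adjusted p = 4.55e-20). Mmp13, a collagenase, rose from 24.7 ± 3.45 to 2079 ± 444 CPM, and Mmp25, a membrane-bound protease, from 0.164 ± 0.139 to 25.3 ± 2.41 CPM. Tgfbi, an adhesion protein of the matrix, fell from 31.3 ± 2.22 to 8.43 ± 2.26 CPM. Gpnmb, one of the most abundant transcripts of these cells, was at 4827 ± 353 CPM untreated and 5198 ± 451 CPM with LPS and did not pass (adjusted p = 0.474).

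Glycolytic genes went both ways, at shares near those of all tested genes. Of 34 genes 10 rose and 10 fell (29.4% each, against 30.4% and 31.0% of all genes), 6 and 10 under all 4 scalings. On library totals 6 rose and 22 fell. Pfkfb3, which raises the allosteric activator of phosphofructokinase, read 51.9, 37.4, 43.8 and 47.2 CPM untreated and 481, 492, 474 and 492 CPM after LPS (log2 3.43 ± 0.11, adjusted p = 2.32e-19). Its relative Pfkfb4 read 25.8, 28.7, 31.3 and 34.7 CPM untreated and 9.40, 10.6, 8.94 and 10.7 CPM after LPS (log2 -1.61 ± 0.13, adjusted p = 6.70e-11). The pair moved in opposite directions without overlap. The hexokinases Hk3 and Hk2 rose, the first from 265 ± 11.3 to 1035 ± 63.4 CPM and the other from 56.5 ± 8.68 to 178 ± 24.8 CPM, and Pfkp from 133 ± 9.85 to 556 ± 35.4 CPM. Aldoa, at 1466 ± 147 CPM untreated and 1872 ± 187 CPM with LPS, did not pass (adjusted p = 0.0932, 0.00799 in the WT libraries alone and 0.000226 with the replicate block). Of 41 genes around the TCA cycle 12 rose and 12 fell (29.3% each, again near the shares of all genes), but only 2 of the rises held under all 4 scalings, Acod1 and Pdk3. With upper-quartile factors 5 rose and 24 fell, and on library totals 2 and 36. Pdk3, an inhibitor of pyruvate dehydrogenase, rose from 6.32 ± 1.03 to 25.9 ± 3.14 CPM, and its relative Pdk2 fell from 6.53 ± 1.30 to 0.950 ± 0.314 CPM. Glul, the glutamine synthetase, fell from 98.8 ± 9.87 to 23.2 ± 1.84 CPM.

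Oxidative phosphorylation and ribosomal proteins depended on the scaling. Of 80 nuclear genes of oxidative phosphorylation 24 rose (30.0%, near the 30.4% of all genes) and 4 fell at the TMM scaling, with a median log2 change of 0.16. In the WT libraries alone 28 rose and 7 fell of the 79 tested there, and 33 and 10 with the replicate block. Without untreated library 3, LPS library 1 or LPS library 4 in turn, 2 fell. On library totals alone none rose and 72 fell, with a median of -0.65. Of 83 cytosolic ribosomal protein genes 13 rose and 1 fell at the TMM scaling, none and 80 on library totals, and of the 82 tested in the WT libraries alone 22 and 4 did, 31 and 5 with the replicate block. The rises were 7 without untreated library 1, 6 without untreated library 4, 8 without LPS library 2 and 7 without LPS library 3. Their share of counts went from 2.60% to 2.99% per untreated library to 1.61% to 1.95% after LPS. None of the 11 tested protein genes of the mitochondrial genome passed edgeR's test at the TMM scaling, 0 at an unadjusted p under 0.05 and 0 by DESeq2. None of the 9 tested in the WT libraries alone passed either, and 5 of these 9 did with the replicate block, all higher. Of all 23 tested mitochondrial genes 2 passed, the transfer RNA genes mt-Ti, at 8.00 ± 0.967 CPM untreated and 11.5 ± 1.55 CPM with LPS, and mt-Tv, at 1.09 ± 0.460 CPM untreated and 2.45 ± 0.0725 CPM with LPS, both higher. The call of mt-Ti was lost without untreated library 4 and without LPS library 3 (adjusted p = 0.0868 and 0.0932), and its log2 change was -0.28 on library totals. On library totals 6 of the 11 fell. No direction can be given for these 3 lists that holds under all the scalings.

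Amino acid and nutrient handling showed large single changes. Slc7a2, which takes up arginine, the substrate of Nos2, read 0.650, 1.30, 1.19 and 1.21 CPM untreated and 304, 248, 202 and 204 CPM after LPS (log2 7.77 ± 0.21, adjusted p = 1.26e-20). Ass1, which remakes arginine from citrulline, rose from 12.2 ± 4.82 to 84.0 ± 14.9 CPM, and Gch1, which makes the cofactor of nitric oxide synthase, from 22.3 ± 3.67 to 317 ± 16.9 CPM. Nampt and Cd38, which make and consume NAD, both rose, the first from 126 ± 7.44 to 963 ± 53.9 CPM and the other from 6.67 ± 1.80 to 168 ± 17.6 CPM. The polyamine enzymes Amd1 and Srm fell, the first from 20.8 ± 1.47 to 6.14 ± 0.521 CPM and the other from 47.7 ± 4.39 to 15.2 ± 1.87 CPM. Of 24 genes in this list 13 rose, 10 under all 4 scalings, and 4 fell (10 and 12 on library totals), and of 45 solute carriers 23 rose, 14 under all 4 scalings, and 15 fell (14 and 21 on library totals). Slc40a1, the iron exporter ferroportin, read 45.3, 32.0, 50.1 and 55.7 CPM untreated and 6.54, 2.17, 3.14 and 3.64 CPM after LPS (log2 -3.57 ± 0.30, adjusted p = 8.12e-11). Slc2a6, a hexose carrier, rose from 37.6 ± 6.77 to 655 ± 43.7 CPM, and Slc46a3, a lysosomal carrier, fell from 32.1 ± 10.8 to 2.79 ± 0.701 CPM.

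Sterol genes fell more often than they rose, and other lipid genes went both ways. Of 37 sterol genes 7 rose and 18 fell, 2 and 18 under all 4 scalings (2 and 29 on library totals). Dhcr7, the last step of cholesterol synthesis, read 43.6, 60.4, 58.7 and 62.8 CPM untreated and 6.05, 8.39, 7.21 and 9.70 CPM after LPS (log2 -2.85 ± 0.23, adjusted p = 3.25e-11). Hmgcs1, an early step, was at 252 ± 19.1 CPM untreated and 315 ± 20.9 CPM with LPS and did not pass (adjusted p = 0.149, 0.00455 in the WT libraries alone and 0.000323 with the replicate block). Of 45 genes of fatty acids and triglycerides 16 rose and 16 fell (35.6% each, against 30.4% and 31.0% of all genes), 8 and 16 under all 4 scalings. On library totals 8 rose and 32 fell. Scd2, a desaturase, fell from 426 ± 69.9 to 22.2 ± 4.49 CPM. Lpin1, which makes diacylglycerol, read 14.4, 17.5, 16.8 and 21.6 CPM untreated and 0.490, 0.544, 0.314 and 0.647 CPM after LPS (log2 -5.12 ± 0.43, adjusted p = 6.43e-11). Fabp3, a fatty acid carrier, rose from 4.08 ± 0.843 to 49.4 ± 11.4 CPM and Acsl1, which activates fatty acids, from 30.5 ± 5.39 to 174 ± 20.7 CPM. In the eicosanoid list 9 rose, 6 under all 4 scalings, and 11 fell of 24 (6 and 14 on library totals). Ptgs2, the inducible cyclooxygenase COX-2, read 4.97, 1.91, 2.67 and 1.65 CPM untreated and 2029, 962, 1169 and 1223 CPM after LPS (log2 8.90 ± 0.35, adjusted p = 1.30e-17). Lta4h, which makes leukotriene B4, fell from 40.5 ± 4.41 to 20.6 ± 1.63 CPM.

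Most nucleotide genes fell while a few rose. Of 39 genes 5 rose and 22 fell, 4 and 22 under all 4 scalings (4 and 34 on library totals). Upp1, which splits uridine, read 3.39, 1.86, 1.43 and 0.582 CPM untreated and 358, 365, 366 and 325 CPM after LPS (log2 7.59 ± 0.39, adjusted p = 2.70e-15). Nt5c3, which dephosphorylates pyrimidine nucleotides, rose from 15.1 ± 1.55 to 300.2 ± 15.9 CPM. Rrm2, the regulated subunit of ribonucleotide reductase, fell from 18.7 ± 7.00 to 1.71 ± 0.8292 CPM, and Ctps, which makes CTP, from 15.1 ± 2.02 to 2.77 ± 0.320 CPM.

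Organelle genes changed in part. Of 48 lysosomal genes 20 rose and 10 fell at the TMM scaling, and 3 and 37 on library totals. Ctsc, the protease that activates granule enzymes, rose under all 4 scalings from 276 ± 32.0 to 1479 ± 70.7 CPM, and Sgsh, a heparan sulphatase, fell from 39.3 ± 6.97 to 4.99 ± 0.620 CPM. Psap, which encodes the saposins, was at 7286 ± 697 CPM untreated and 7346 ± 202 CPM with LPS and did not pass (adjusted p = 0.944). Of 37 autophagy genes 11 rose (29.7%, against 30.4% of all genes) and 18 fell, 4 and 18 under all 4 scalings (4 and 31 on library totals). Sesn1, a stress-induced inhibitor of mTORC1, read 80.2, 118, 115 and 152 CPM untreated and 4.82, 5.90, 4.78 and 4.93 CPM after LPS (log2 -4.51 ± 0.29, adjusted p = 2.97e-13). Tfeb, a master factor of lysosome genes, fell from 35.9 ± 3.22 to 6.85 ± 1.42 CPM, and Optn, an autophagy receptor, rose from 25.3 ± 1.85 to 93.5 ± 18.4 CPM. In the unfolded protein response list 17 rose, 5 under all 4 scalings, and 11 fell of 41 (12 and 17 with upper-quartile factors, 5 and 29 on library totals). The heat shock genes Hspa1b and Hspa1a, near-identical copies, rose, the first from 2.12 ± 0.341 to 55.3 ± 20.1 CPM and the other from 2.44 ± 0.230 to 40.0 ± 13.8 CPM, and Herpud1, of degradation at the endoplasmic reticulum, fell from 96.3 ± 23.3 to 18.2 ± 2.05 CPM. Of 29 known HIF targets 10 rose (34.5%, against 30.4% of all genes), 5 under all 4 scalings, and 14 fell (5 and 17 on library totals). Egln3, an oxygen sensor, fell from 7.20 ± 2.67 to 0.971 ± 0.285 CPM and P4ha1, a collagen hydroxylase, rose from 120.0 ± 13.0 to 424 ± 22.9 CPM. Of 44 cytoskeletal genes 25 rose and 9 fell, 10 and 9 under all 4 scalings (10 and 24 on library totals), and in the WT libraries alone 11 fell, 14 with the replicate block. Marcksl1, which binds actin and the plasma membrane, rose from 173 ± 26.2 to 3293 ± 403 CPM and Fscn1, which bundles actin, from 0.480 ± 0.339 to 13.6 ± 2.72 CPM. Myo1f, a myosin of leukocytes, fell from 584 ± 25.8 to 302 ± 35.6 CPM.

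Genes of the cell cycle fell almost throughout. Of 38 S phase genes 34 fell and 2 rose, of 36 mitosis genes 34 fell and 1 rose, and of 39 DNA repair genes 28 fell and 2 rose. Their median log2 changes were -2.07, -2.55 and -1.48, against 0.003 over all genes, a value that TMM scaling brings near 0. On library totals the medians were -2.89, -3.36 and -2.29, against -0.80 over all genes. All of these falls held under all 4 scalings, as falls called at TMM did throughout, and in the WT libraries alone 3 DNA repair genes rose, 4 with the replicate block. Mcm2, of the replicative helicase, read 40.4, 59.1, 39.0 and 29.4 CPM untreated and 4.58, 4.66, 3.84 and 3.31 CPM after LPS (log2 -3.35 ± 0.23, adjusted p = 7.54e-13). E2f2 fell from 8.51 ± 2.08 to 0.341 ± 0.204 CPM and Cdc6, a licensing factor, from 8.85 ± 3.56 to 0.833 ± 0.228 CPM. Untreated libraries 1 and 2 were above libraries 3 and 4 in Mcm2, Cdc6 and E2f2. Brca2, of homologous recombination, read 6.08, 6.19, 4.57 and 4.56 CPM untreated and 0.327, 0.233, 0.0784 and 0 CPM after LPS (log2 -5.01 ± 0.48, adjusted p = 9.91e-10), and Chek2, a damage checkpoint kinase, fell from 8.66 ± 1.24 to 0.558 ± 0.0703 CPM. Ung, which removes uracil from DNA, fell from 5.90 ± 2.67 to 0.0613 ± 0.123 CPM.

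A few members of these lists went the other way. Tpx2, a spindle assembly factor, read 25.4, 33.8, 19.2 and 16.1 CPM untreated and 95.6, 124, 103 and 111 CPM after LPS (log2 2.20 ± 0.20, adjusted p = 3.39e-10), and Rfc3, of the clamp loader, rose from 14.5 ± 1.85 to 34.8 ± 1.11 CPM. Cenpe, a kinetochore motor, was at 12.0 ± 3.83 CPM untreated and 15.6 ± 4.74 CPM with LPS and did not pass (adjusted p = 0.317, 0.2 in the WT libraries alone and 0.0042 with the replicate block). Among cell cycle brakes and p53 targets 11 rose (33.3%, against 30.4% of all genes), 8 under all 4 scalings, and 15 fell of 33 (8 and 21 on library totals). Ccnd2, cyclin D2, read 16.0, 19.8, 18.4 and 17.8 CPM untreated and 382, 439, 391 and 423 CPM after LPS (log2 4.50 ± 0.24, adjusted p = 3.97e-15). Cyclin D2 promotes the cell cycle, so this member of the list is not a brake. Gadd45b, a stress sensor, rose from 58.0 ± 10.1 to 495 ± 15.2 CPM. Foxo3, a factor of quiescence, fell from 49.3 ± 7.19 to 10.8 ± 1.25 CPM, and Trp53inp1, a p53 target, from 17.8 ± 5.25 to 4.29 ± 1.19 CPM.

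Noncoding RNAs and clock genes fell more often than they rose. Of 25 long noncoding and microRNA host genes 4 rose, 2 under all 4 scalings, and 14 fell (2 and 22 on library totals). Mir155hg, the host transcript of miR-155, read 0.325, 0, 0.143 and 0.0485 CPM untreated and 62.5, 60.1, 56.1 and 66.7 CPM after LPS (log2 8.80 ± 0.30, adjusted p = 7.98e-19). These counts are of the host transcript, and the mature microRNA was not measured. Snhg1 and Snhg12, hosts of small nucleolar RNAs, fell, the first from 14.1 ± 3.53 to 4.29 ± 0.982 CPM and the other from 9.57 ± 1.29 to 3.13 ± 0.630 CPM. Of 19 clock genes 2 rose, 2 under all 4 scalings, and 10 fell (2 and 16 on library totals), and 2 rose in the WT libraries alone, 4 with the replicate block. Dbp, an output factor of the clock, read 9.80, 13.5, 16.1 and 31.6 CPM untreated and 1.47, 0.777, 0.706 and 1.94 CPM after LPS (log2 -3.86 ± 0.64, adjusted p = 8.26e-06), with untreated library 4 the highest. Tef fell from 29.1 ± 7.06 to 5.26 ± 0.661 CPM, and Nfil3, the antagonist of both on shared DNA sites, rose from 9.70 ± 0.588 to 54.1 ± 5.24 CPM.

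Some genes that mark endothelium, stroma or lymphocytes also changed. Kdr, the main VEGF receptor of endothelium, read 1.67, 1.91, 2.48 and 3.00 CPM untreated and 44.5, 38.7, 31.0 and 37.6 CPM after LPS (log2 4.07 ± 0.19, adjusted p = 3.56e-16), while Vwf, of the same list, fell from 26.6 ± 2.52 to 15.1 ± 3.40 CPM. The 7 endothelial markers summed, on library totals, to 35.4 to 42.8 CPM untreated and 35.9 to 49.3 after LPS, and none was at 0 in all libraries. Pdgfrb, a marker of fibroblasts and pericytes, read 0.0464, 0.140, 0.191 and 0.194 CPM untreated and 8.75, 6.91, 6.98 and 10.8 CPM after LPS (log2 5.81 ± 0.36, adjusted p = 1.52e-13), and it was the only one of the 7 fibroblast markers with enough counts to be tested. That list summed to at most 0.376 CPM untreated and to 5.36 to 8.33 after LPS, with Col3a1 and Pdgfra at 0 in all 8 libraries. The 6 natural killer cell markers summed to at most 0.379 untreated and to 16.4 to 27.0 after LPS, nearly all of it Klrk1, with Gzma at 0. Of the T cell list 2 genes had enough counts. Lck, a kinase of the T cell receptor, read 0.186, 0.233, 0.0953 and 0.0969 CPM untreated and 3.68, 8.00, 4.31 and 3.31 CPM after LPS (log2 4.91 ± 0.44, adjusted p = 2.42e-10), without overlap, and Cd4 read 6.64, 6.85, 8.05 and 11.2 CPM untreated and 5.72, 6.83, 5.88 and 10.4 CPM after LPS, with overlapping groups (adjusted p = 0.642, and 0.00551 on library totals, where it was lower). The 7 T cell markers summed to 9.91 to 15.3 untreated and 7.22 to 11.9 after LPS. Clec9a, the only dendritic cell marker tested, read 0, 0, 0.143 and 0.194 CPM untreated and 0.572, 1.01, 0.627 and 0.808 CPM after LPS (log2 3.08 ± 0.78, adjusted p = 0.0013). Both B cell markers with enough counts fell, Ighm from 36.4 ± 14.7 to 7.16 ± 3.63 CPM and Cd79b from 11.2 ± 3.70 to 3.40 ± 0.526 CPM. The part of other cell types in these changes was not tested.

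The change was also taken within each replicate number. It had the same sign in all 4 numbers for 10925 of the 14757 tested genes (74.0%), and for 8931 of the 9055 called genes (98.6%), which the test chose on the same libraries. For Tnfrsf14, the receptor HVEM, the log2 changes within numbers 1 to 4 were 0.95, 2.46, 0.65 and 3.43, at levels of 31.6, 11.6, 31.7 and 10.1 CPM untreated and 61.5, 66.2, 50.1 and 114 CPM after LPS. For Lars2 they were 1.86, 1.76, 0.71 and -0.71, so that number 4 went against the other 3. For Mefv they were 2.69, 4.16, 3.62 and 4.51. Of the 178 genes more than 16-fold higher whose untreated mean was at least 0.5 CPM, untreated library 1 was the highest of its group in 64, library 4 in 68, library 2 in 29 and library 3 in 17.

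**Figure D5:**
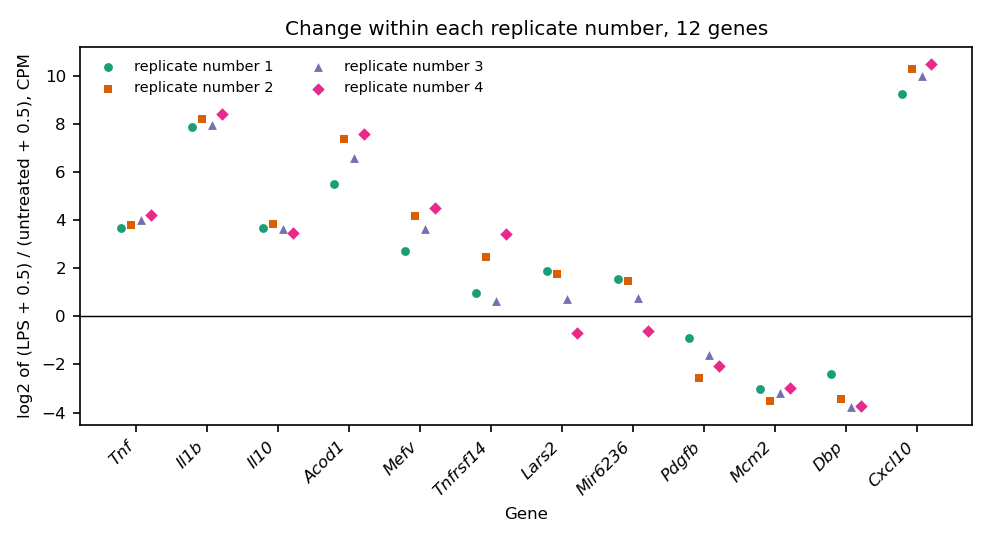
Log2 change within each replicate number, with 0.5 CPM added to both levels, for 12 genes. Points of one gene lie close for Il10 and Mcm2 and apart for Acod1, Mefv and Tnfrsf14, and number 4 lies under 0 for Lars2 and Mir6236.

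Fewer genes could be placed within narrow bounds than passed the test. For 2830 tested genes (19.2%) the 95% interval of the change lay within 1.5-fold in either direction at the TMM scaling, and 595 of these also passed the test. For 3467 of the 5702 genes that did not pass, the interval reached further than that. Among abundant transcripts Psap had an interval of [-0.25, 0.28], Lyz2 of [-0.16, 0.31] and Gpnmb of [-0.15, 0.36] on the log2 scale. Spp1, osteopontin, was at 3418 ± 608 CPM untreated and 4510.0 ± 977 CPM with LPS and Lpl, the lipoprotein lipase, at 3449 ± 528 CPM untreated and 3050.5 ± 517 CPM with LPS, and neither passed (adjusted p = 0.163, 0.0459 in the WT libraries alone and 0.00062 with the replicate block for Spp1, adjusted p = 0.41, 0.169 in the WT libraries alone and 0.0191 with the replicate block for Lpl). Lpl was called lower with upper-quartile factors, on library totals and without a filter (log2 -0.45, -0.98 and -0.34, adjusted p = 0.0337, 2.68e-05 and 0.0181).

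The response was set beside that of the other 2 genotypes, which have their own untreated groups. Of the 4484 genes that rose in WT cells 4156 (92.7%) also rose in the knockout and 4006 (89.3%) in the deltaCIS cells, and of the 4571 that fell 4084 (89.3%) and 3991 (87.3%) also fell. Of the genes that rose in WT, 1 was called the other way in the knockout and 2 in deltaCIS cells, and of those that fell, 0 and 3. The shares of all tested genes called in those genotypes are not given here, so these overlaps cannot be set against them. All 379 genes more than 16-fold higher in WT cells rose in both. The difference in response from WT passed edgeR's test for 3 genes in the knockout, with 258 of 14757 genes (1.75%) at an unadjusted p under 0.05. They were Rnf144a, a ubiquitin ligase gene, Adi1, an enzyme of methionine salvage, and Nol10, a nucleolar protein gene. Where these genes lie relative to Hdac9 was not examined, and the cause of their differences was not tested. In deltaCIS cells edgeR's test called 0, with 1159 of 14757 genes (7.85%) at an unadjusted p under 0.05. The deltaCIS values include libraries 3 and 4 of the deltaCIS LPS group, and these comparisons were not repeated without them. Rnf144a had a log2 change of 2.31 in WT and -0.95 in knockout cells (edgeR, adjusted p of the difference 0.00291).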

How the data were processed

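Total RNA from bone marrow-derived macrophages was captured on oligo-dT beads, made into barcoded libraries and sequenced as paired reads of 60 nucleotides, per the labels' protocols. The authors deposited 1 table of raw counts, whole numbers of reads per gene ID for 24 libraries. The submitters' processing notes name STAR, edgeR and the build mm39. The counting program, its strand setting and the annotation are not stated there or in the labels, so overlapping antisense genes could not be told apart. Symbols were found for 91.23% of IDs.

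All 24 libraries were fitted with 1 mean per group (edgeR 4.0.16, quasi-likelihood test, filterByExpr, TMM, Benjamini-Hochberg adjustment over 14757 genes), so that the other genotypes served only to estimate the spread, except where their responses are named. Changes beyond 2-fold were tested with glmTreat. The script was tested on simulated data. Single values per library were compared by exact permutation. Same-numbered untreated and LPS libraries deviated together (correlations of 0.135, 0.150, 0.113 and 0.132 over genes). The main fit did not pair them, so its calls, SE and adjusted p ignore the replicate number. A replicate block was run as an alternative, beside other scalings, filters, library sets, DESeq2 1.42.0 and leaving out each library. An exact test within pairs was added after the data were seen.

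Genes were named by a rule: the 10 largest rises and falls by log2 change and by CPM, up to 4 called members of each list in its main direction and 2 in the other with at least 5 CPM and no overlap, its most abundant uncalled member, fixed anchors, the widest ranges within numbers and the most abundant uncalled genes. Of these a selection is described. The genes and lists were chosen with earlier results of these data known. Promoters are RefSeq windows of GRCm38.p6, another build than that of the counts, matched by symbol.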

Additional observations from a re-analysis of the deposited data

Results flagged for a closer look

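In 15 of 480 groups of 4 libraries tested, 1 library lay far from the other 3. Chance alone flags about 5% of such groups (about 1 in 20). In the LPS group, library 4 had 3595 CPM of Adgre1 against 2737 to 2802 CPM in the others. Library 2 had 304 CPM of Cxcl9 against 227 to 238, 4521 CPM of Gpnmb against 5394 to 5439, 16.5 CPM of Hdac9 against 10.4 to 11.4, 5.90 CPM of Sesn1 against 4.78 to 4.93, and 0.155 CPM of Rasgrp3 against 0. Library 1 had 0.245 CPM of Cnr2 against 0.0777 to 0.0808, and 0.245 CPM of Ung against 0.

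Among untreated libraries, library 1 had 169 CPM of Tnf against 101.0 to 101.4, 11.2 CPM of Gpr183 against 14.0 to 14.1, and 33.9 CPM of Lta4h against 41.9 to 43.4. Library 2 had 324 CPM of Plau against 164 to 181, library 3 had 139 CPM of P4ha1 against 111 to 116, and library 4 had 41.2 CPM of Srm against 49.4 to 50.8 and 105 CPM of Csnk1d against 98.0 to 99.0.

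The response to LPS differed between knockout and WT cells in 3 genes by edgeR's test of the difference itself. The log2 response of the knockout minus that of WT was -3.26 for Rnf144a, 1.47 for Adi1 and 1.31 for Nol10 (adjusted p = 0.00291, 0.0163 and 0.000731). The cause was not tested, nor was the position of these genes relative to Hdac9 examined.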

How the results depend on the processing

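The split of calls moved with the scaling. At library totals 2067 genes were higher and 9525 lower, and 1096 and 4338 beyond 2-fold, so that 17.8% of calls were higher against 49.5% with TMM, 47.4% with RLE and 34.97% with upper-quartile factors. A plain test with a change over 2-fold gave 2581 lower. Leaving out each WT library gave 8629 to 8717 called genes. Leaving out libraries 3 and 4 of the deltaCIS LPS group together, as planned, gave 9643 called of 15380 tested genes. The WT libraries alone gave 9471 called genes, and 9900 with the replicate block, while all libraries gave 9055, and 9548 with the block. Of the values of named genes 454 of 469 kept their call and direction under it, the others being given beside the gene or Psap, which was uncalled in both. DESeq2 called 9241. The share of the 100 most abundant genes, 3.72 percentage points higher with LPS, was 1.72 points higher for 50 genes (exact permutation p = 0.143) and -0.387 for 10 (p = 0.6). In an exact test within pairs, added after the data were seen, the 3.72 points and the change in genes detected at 1 CPM of library totals (-1291) had p = 0.125, the smallest that 4 pairs can give.

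On library totals the log2 change of genes called under either scaling turned negative for Adgre1 (-0.26), Aldoa (-0.45), Ccl6 (-0.65), Fth1 (-0.21), Gpnmb (-0.70), Hdac9 (-0.67), Hmgcs1 (-0.49), Itgb2 (-0.76), Lyz2 (-0.73), mt-Ti (-0.28), Psap (-0.80), Tgfb1 (-0.63) and Tlr4 (-0.33), and that of genes uncalled under both for Cenpe (-0.44), Hmox1 (-0.61), Ifitm6 (-0.39) and Spp1 (-0.41). With upper-quartile factors it turned negative for Itgb2 (-0.23), which was then called, and for the uncalled Ccl6 (-0.12), Gpnmb (-0.17), Hdac9 (-0.14), Hmox1 (-0.08), Lyz2 (-0.20), Psap (-0.27) and Tgfb1 (-0.09). Calls were lost for Lars2 and Mir6236 without LPS library 1 (adjusted p = 0.0554 and 0.0585) and under both of these scalings, for Adgre1 and Fth1 with upper-quartile factors (0.0965 and 0.0886), for Abcg1, Mir22hg and mt-Tv on library totals (0.0608, 0.374 and 0.344), for mt-Ti with upper-quartile factors (0.292) and without a filter (0.161), and for Tlr4 with upper-quartile factors (0.298) and without a filter (0.0517). The causes were not tested. Genes near or under 1 CPM rest on few counts, and their changes are the least precise.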

Other observations

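Calcium and cyclic nucleotide genes were divided. Of 31 such genes 13 rose, 8 under all 4 scalings, and 13 fell, and on library totals 8 rose and 20 fell. Itpr1, the calcium channel of the endoplasmic reticulum, rose from 10.5 ± 0.658 to 106 ± 20.0 CPM, and Stim2, which senses calcium in that store, from 28.0 ± 3.14 to 115 ± 14.8 CPM. Nfatc2, a factor that calcium activates, fell from 46.5 ± 7.89 to 7.85 ± 0.742 CPM, and Tpcn1, a channel of endosomes, from 118 ± 14.8 to 14.0 ± 1.84 CPM.

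Transport of small molecules and sterols also changed. Slco3a1, an organic anion carrier, rose from 16.3 ± 1.63 to 709 ± 40.5 CPM and Slc28a2, a nucleoside carrier, from 30.4 ± 10.3 to 715 ± 85.9 CPM. Abcg1, which exports cholesterol, rose from 58.9 ± 7.77 to 143 ± 24.0 CPM while Abcg3 fell from 10.6 ± 3.43 to 1.53 ± 0.722 CPM. Kcnq1ot1, an imprinted noncoding RNA, went from 20.8 ± 2.84 to 4.18 ± 0.916 CPM, and Mir22hg, the host of miR-22, from 51.5 ± 8.88 to 97.8 ± 8.89 CPM. Per3, a repressor of the clock, went from 7.94 ± 3.26 to 1.20 ± 0.834 CPM, and Csnk1d, a kinase of clock proteins, from 100.2 ± 3.40 to 203 ± 12.3 CPM.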
